A study of Mus musculus with 14 samples.

Results

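The transcripts described here belong to 40 genes of the cell division cycle that act outside replication licensing, the loading of the MCM helicase onto DNA. The members were taken by gene symbol from a list, and each gene was read from its brightest probe set over all 14 arrays, whatever its change between groups. Of the 40 genes, 39 had a probe set among the 18193 genes named on the array, and Ccnb1 was not analysed here. All 39 passed the filter on dim probe sets, along with 13035 genes in all, since each reached a mean log2 level of 6.87 in at least 1 tissue. The 39 reached that level in 26 cases in liver sinusoidal endothelium, 38 in lung endothelium and 38 in thymus, and Tyms reached it through thymus alone.

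Dividing cells turn these genes on in waves. Cyclin E and E2F factors lead the cell into DNA synthesis, enzymes such as ribonucleotide reductase supply the nucleotides, and cyclin-dependent kinase 1 with cyclins A and B then drives mitosis. The spindle checkpoint holds chromosome separation until every chromosome is attached, and a ubiquitin ligase, the anaphase-promoting complex, ends mitosis. In adult tissue the endothelium of liver and lung is mostly quiescent, whereas the thymus holds many dividing lymphocyte precursors. FoxO factors, the products of the deleted genes, are known to restrain the cell cycle in several cell types.

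The samples came from mice of FVBn background whose 3 FoxO genes all carried floxed alleles, written Fk1 L/L, Fk2 L/L and Afx L/L, older names for Foxo1, Foxo3 and Foxo4. Cre+ samples also carried MxCre, in which Cre is made from an interferon-inducible promoter that is not restricted to endothelium. Controls carried the same floxed alleles without MxCre. There were 3 Cre+ and 3 control samples of liver sinusoidal endothelial cells (LSEC), 2 and 2 of lung endothelial cells, and 2 and 2 of thymus. The labels say nothing of age, sex, Cre induction or cell isolation. They do not tie replicates to different animals either, and each p-value below therefore measures the spread between these samples, which may be technical. All levels below are log2 values after quantile normalization, and all log2 fold changes are differences of such levels.

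The floxed genes were checked first. Foxo4, on its brightest probe set, had log2 levels of 4.69, 5.38 and 4.86 in Cre+ LSEC against 7.37, 7.06 and 6.94 in control LSEC, of 6.72 and 6.02 in Cre+ lung against 7.46 and 7.49 in control lung, and of 4.73 and 4.97 in Cre+ thymus against 8.08 and 8.09 in control thymus. The other Foxo4 probe set, under the filter level, averaged 6.48 in Cre+ LSEC against 6.58 in control LSEC, 6.06 in Cre+ lung against 6.67 in control lung, and 6.26 in Cre+ thymus against 6.33 in control thymus. Foxo1 log2 levels were 7.84 to 8.19 in Cre+ LSEC against 8.87 to 8.97 in control LSEC, 8.24 and 8.49 in Cre+ lung against 8.86 and 8.90 in control lung, and 7.98 and 8.29 in Cre+ thymus against 9.21 and 9.44 in control thymus. In limma, on their brightest probe sets, Foxo1 and Foxo4 both fell in LSEC (adjusted p = 0.000984 for Foxo1 and 0.000136 for Foxo4) and thymus (0.00595 and 0.000181). On these probe sets neither gene passed in lung (0.561 and 0.248). Foxo3 fell in LSEC by 0.53 but was 0.68 higher in Cre+ thymus (adjusted p = 0.00309 and 0.0144), and its log2 fold change in lung was 0.10 (adjusted p = 1). Arrays of 1 group correlated at r of 0.970 to 0.987 across genes and arrays of different tissues at 0.584 to 0.838. In control samples the summed level of 11 pan-endothelial markers was 14.34 to 14.64 in LSEC and 13.37 to 13.61 in lung on the log2 scale, and that of 9 thymocyte markers was 15.02 and 15.05 in thymus. Markers of other cells were as high or higher in control lung: 14.67 and 14.83 for 8 stellate, fibroblast and mural markers, and 13.43 and 13.45 for 6 lung epithelial markers. The sum of 6 macrophage markers was 13.76 and 13.99 in control lung and 13.10 to 14.15 in control LSEC. The name lung endothelium follows the labels.

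**Figure D1:**
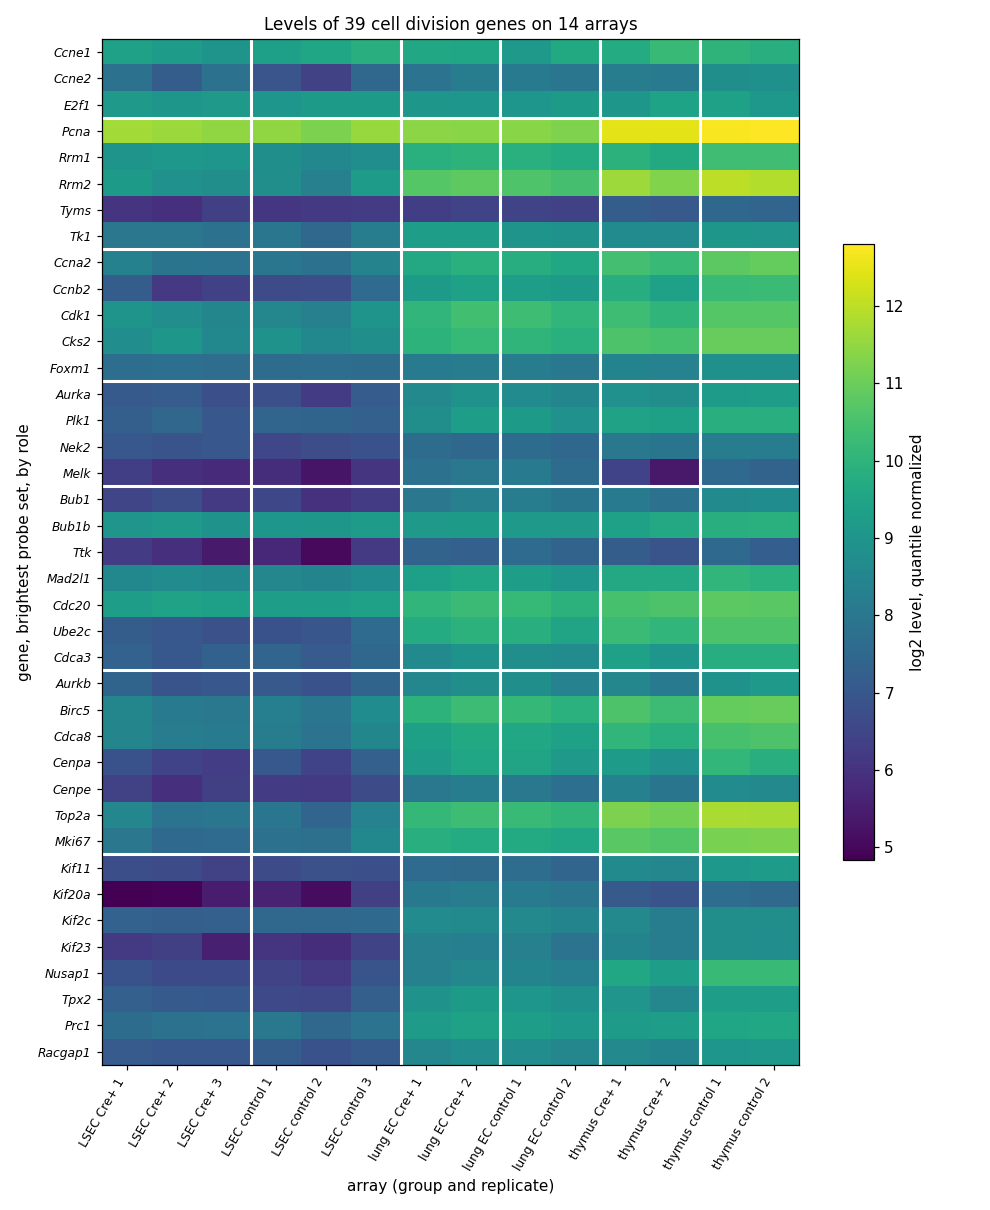
Log2 level of the 39 measured cell division genes (rows, grouped by role) on each of the 14 arrays (columns); white lines part the roles and the groups, and colour gives the quantile normalized log2 level of each gene's brightest probe set. Most rows are darkest in LSEC and brightest in thymus, while Ccne1, E2f1 and Bub1b differ less between tissues.

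The control samples gave the resting level of division transcripts in each tissue. In control LSEC 34 of the 39 genes were lower than in control lung endothelium and none was higher, where 20.2% of all genes tested were lower and 46.1% differed either way. The median log2 fold change of the 39, LSEC over lung, was -1.51, against 0.08 over all genes tested. Control thymus was compared with the mean of control LSEC and control lung. Of the 39 genes, 36 were higher in thymus and none was lower, where 28.6% of all genes were higher and 65.5% differed either way. Their median log2 fold change was 1.39. The means ran in the order thymus, lung, LSEC for 33 genes, lung, thymus, LSEC for Melk, Ttk and Kif20a, and thymus, LSEC, lung for Ccne1, E2f1 and Pcna. In these samples, more dividing cells and more RNA per dividing cell cannot be told apart.

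Genes of mitosis showed the widest spread between tissues. Mki67, which encodes the proliferation marker Ki-67, had log2 levels of 11.20 and 11.23 in control thymus, 7.83, 7.78 and 8.55 in control LSEC, and 9.69 and 9.52 in control lung. Top2a, a topoisomerase that untangles chromosomes, had 11.79 and 11.76 in control thymus, 7.97, 7.45 and 8.36 in control LSEC, and 10.22 and 10.06 in control lung. The 3 tissues did not overlap for either gene. Ube2c, the ubiquitin-conjugating enzyme of the anaphase-promoting complex, had the largest gap between the endothelia among the 39, with log2 levels of 6.83, 6.98 and 7.63 in control LSEC against 9.82 and 9.49 in control lung, 5.69-fold lower in LSEC (log2 fold change -2.51 ± 0.21 SE, limma adjusted p = 3.92e-06). Nusap1, a spindle microtubule protein, had the largest excess in thymus among the 39, with 10.23 in both control thymus arrays against 6.18 to 6.90 in control LSEC and 8.26 and 8.44 in control lung (2.79 ± 0.17 SE, adjusted p = 3.8e-08). All 7 chromosome and centromere genes and all 8 spindle and cytokinesis genes were lower in control LSEC than in control lung. All of them were also higher in control thymus than the mean of control LSEC and control lung, although Kif20a was highest in control lung.

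Genes of the earlier phases were less uniform. Pcna, the sliding clamp of DNA polymerase, had log2 levels of 11.47, 11.24 and 11.58 in control LSEC against 11.39 and 11.28 in control lung, which overlapped, while control thymus had 12.74 and 12.80. Its log2 fold change, LSEC over lung, was 0.10, with a 95% interval from -0.13 to 0.33. Rrm1, the large subunit of ribonucleotide reductase, was lower in control LSEC, with 8.80, 8.55 and 8.73 against 9.90 and 9.74 in control lung (-1.12 ± 0.11 SE, adjusted p = 9.57e-06). Rrm2, Tk1 and Ccne2 were lower in control LSEC as well (-1.75, -1.06 and -1.09, limma adjusted p = 8.16e-05, 0.000229 and 0.00706). The gap for Rrm2 was wider than that for Mki67 (-1.55). Tyms, which makes thymidylate, did not pass between the endothelia (-0.24, adjusted p = 0.106), with all of its endothelial log2 levels between 5.96 and 6.48 and so under the filter level.

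E2f1, the founding E2F factor, and Ccne1, which encodes cyclin E1, did not pass between control tissues on their brightest probe sets. E2f1 had log2 levels of 9.39 and 9.07 in control thymus, 9.01, 9.19 and 9.19 in control LSEC, and 9.02 and 9.17 in control lung. Ccne1 had 10.01 and 9.83 in control thymus, 9.34, 9.55 and 9.82 in control LSEC, and 9.13 and 9.68 in control lung. For E2f1 the 3 tissues overlapped, and for Ccne1 the 2 endothelia did. Neither gene passed in LSEC against lung (log2 fold changes 0.04 and 0.16, adjusted p = 0.828 and 0.541) or in thymus against endothelia (0.12 and 0.43, adjusted p = 0.409 and 0.06). Their dimmer probe sets did not read the same. For control LSEC over control lung, the brightest Ccne1 probe set gave a log2 fold change of 0.16 and the other one -1.16. For E2f1 the brightest gave 0.04 and the next one above the filter level -0.90. The same held for the checkpoint kinase gene Bub1b, where the brightest gave -0.05 and the next one -3.17. These dimmer probe sets of Ccne1, E2f1 and Bub1b reached the filter level outside LSEC only. Their control LSEC means were 6.36, 6.05 and 4.63, so the sizes they gave are uncertain. Across the 39 genes, 32 other probe sets of 22 members also reached the filter level in at least 1 tissue, and 27 of these 32 had control LSEC below control lung. The third gene that did not pass in thymus against endothelia was Melk, a mitotic kinase gene (0.67, adjusted p = 0.0505).

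**Figure D2:**
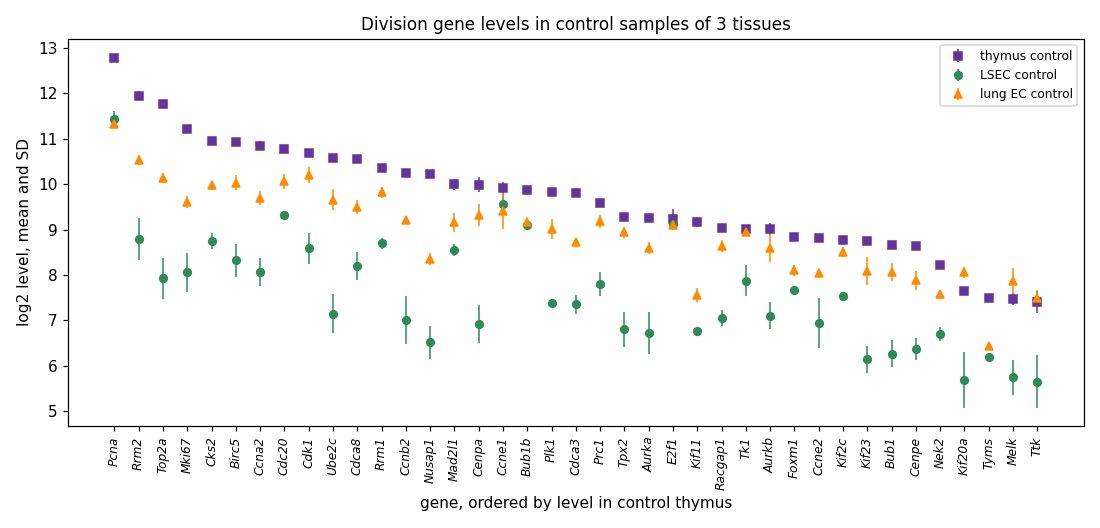
Mean log2 level with its SD in control samples of thymus (squares, n = 2), LSEC (circles, n = 3) and lung endothelium (triangles, n = 2) for each of the 39 genes, set along the axis by their level in control thymus for display alone. The LSEC circles lie lowest for 36 genes, and the exceptions are Ccne1, E2f1 and Pcna.

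Values of other cell types moved with these tissue differences. The summed level of 6 lung epithelial markers was 10.17 to 10.48 in control LSEC against 13.43 and 13.45 in control lung, and that of 8 stellate, fibroblast and mural markers was 11.74 to 12.06 against 14.67 and 14.83, both on the log2 scale. Their part in the difference between the endothelia was not tested. In LSEC 13 of the 39 genes stayed under the filter level, so the size of their difference from lung is uncertain. Both comparisons of control tissues used the same LSEC and lung control arrays.

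In thymus, Cre+ samples were lower than control samples for 37 of the 39 genes, but no gene passed the test on its own. The median log2 fold change of the 39 was -0.51, against 0.02 over all genes tested. Every Cre+ array lay below every control array for the same 37 genes, where 18.5% of all genes tested did so, and above every control array for 0 of 39, where 23.1% did. Benjamini-Hochberg adjusted p from limma was under 0.05 for 0 of 39, where 0.414% of all genes passed, and the smallest was 0.0554. At an unadjusted p under 0.05 there were 27 of 39, where 12.4% of all genes tested were. The 2 genes without this difference were Ccne1 and E2f1, whose arrays overlapped on their brightest probe sets (log2 fold changes 0.07 and 0.03). Their next probe sets gave -0.08 for Ccne1 and -0.23 for E2f1, the latter under the filter level in thymus. Ccne1 had log2 levels of 9.75 and 10.23 in Cre+ thymus against 10.01 and 9.83 in control thymus, and E2f1 had 9.05 and 9.46 against 9.39 and 9.07.

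Melk showed the largest difference among the 39. Its log2 levels were 6.44 and 5.37 in Cre+ thymus against 7.56 and 7.38 in control thymus, 2.96-fold lower (-1.57, 95% interval -2.28 to -0.85, limma adjusted p = 0.0699). Both Cre+ arrays were under the filter level and lay far apart from each other, with an SD of 0.75, the largest of any member in any group. Foxm1, the forkhead factor that turns on mitotic genes, had the smallest adjusted p, with log2 levels of 8.43 and 8.36 in Cre+ thymus against 8.83 and 8.82 in control thymus (-0.43 ± 0.08 SE, adjusted p = 0.0554). Among the genes of nucleotide supply, Rrm1 had 9.94 and 9.68 in Cre+ thymus against 10.34 and 10.37 in control thymus (-0.55 ± 0.12 SE, adjusted p = 0.0731). Pcna had 12.47 in both Cre+ arrays against 12.74 and 12.80 in control arrays, a log2 fold change of -0.30 (adjusted p = 0.327). For these 4 genes the groups did not overlap.

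The same held along the cycle. Ccne2, the second cyclin E gene, had log2 levels of 8.21 and 8.12 in Cre+ thymus against 8.81 and 8.83 in control thymus (-0.65, adjusted p = 0.412). Cdk1, the kinase that drives mitosis, had 10.31 and 10.04 in Cre+ thymus against 10.69 and 10.70 in control thymus (-0.52, adjusted p = 0.356). Cenpa, the histone H3 variant that marks centromeres, had 9.23 and 8.86 in Cre+ thymus against 10.11 and 9.87 in control thymus (-0.94, adjusted p = 0.154). All 7 chromosome and centromere genes were at an unadjusted p under 0.05, with log2 fold changes from -0.94 to -0.51. Nusap1 had 9.59 and 9.31 in Cre+ thymus against 10.23 in both control arrays (-0.78, adjusted p = 0.122). Mki67 had 10.76 and 10.64 in Cre+ thymus against 11.20 and 11.23 in control thymus (-0.52, adjusted p = 0.376).

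By role, the medians of the log2 fold changes in thymus were 0.03 for the 3 genes of S phase entry (Ccne1, E2f1 and Ccne2), with 2 of 3 above 0, -0.36 for the 5 genes of DNA precursors and replication, -0.52 for the 5 of cyclin-dependent kinase 1 and its factors, and -0.44 for the 4 other mitotic kinases. They were -0.36 for the 7 of the spindle checkpoint and mitotic exit, -0.59 for the 7 of chromosome and centromere and -0.52 for the 8 of spindle and cytokinesis. Of the 32 other probe sets at or above the filter level, 28 were lower in Cre+ than in control thymus, and the 4 that were not belonged to Cdca3 and Tpx2. The median of the 39 genes stayed below 0 with each array left out, between -0.61 and -0.38, but the count of passing genes was 4 without Cre+ thymus replicate 1 (Rrm1, Foxm1, Melk and Kif2c).

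Markers of other cells were set beside these values. The summed level of the 9 thymocyte markers was 14.89 and 14.99 in Cre+ thymus against 15.02 and 15.05 in control thymus on the log2 scale, and 0 of 9 passed. That of the 8 stellate, fibroblast and mural markers was 12.74 and 12.88 against 12.42 and 12.49, with a median log2 fold change of 0.54 and 1 of 8 higher, Col3a1 (0.75, limma adjusted p = 0.0183). No marker of these lists was at 0 in thymus. Their part in the lower division transcripts was not tested.

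**Figure D3:**
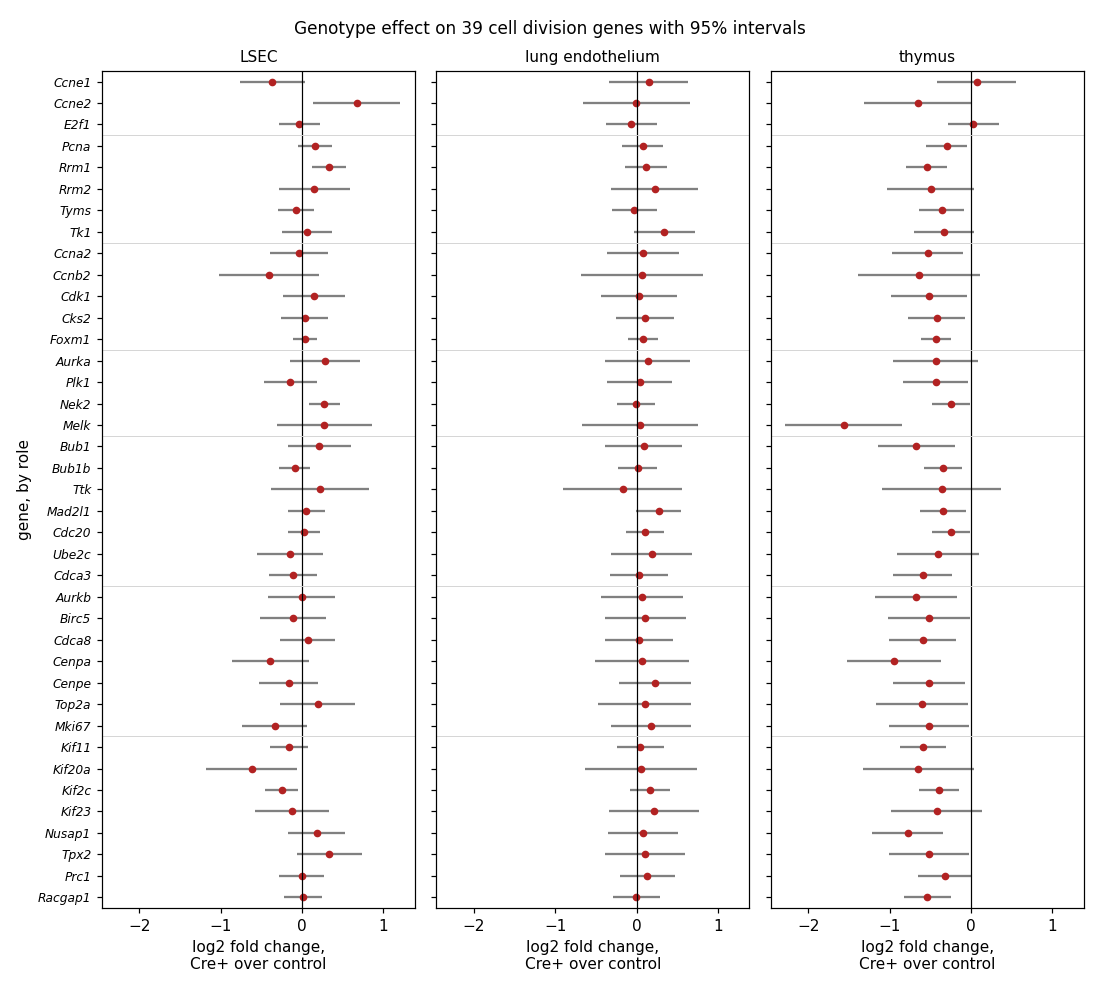
Log2 fold change, Cre+ over control, of each of the 39 genes in LSEC (left), lung endothelium (middle) and thymus (right), with 95% intervals from limma; the vertical line marks 0. In thymus 37 points lie left of 0, in LSEC 19 and in lung 6.

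In LSEC the genotype left the division genes on both sides of 0. Of 39 genes, 20 had a positive and 19 a negative log2 fold change, with a median of 0.01, equal to that over all genes tested. None passed, where 6.06% of all genes tested did, and 5 of 39 had an unadjusted p under 0.05, where 19.9% of all genes did. The arrays of the genotypes did not overlap for Rrm1 and Nek2, higher in Cre+ LSEC, and for Kif2c, lower in Cre+ LSEC, where 12.5% of all genes were higher and 11.2% lower in every Cre+ array.

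Rrm1 had the smallest adjusted p, with log2 levels of 8.96, 9.09 and 9.01 in Cre+ LSEC against 8.80, 8.55 and 8.73 in control LSEC (0.33 ± 0.09 SE, limma adjusted p = 0.0686). A second bright probe set of Rrm1 gave 0.34. Nek2, a centrosomal kinase gene, averaged 6.97 ± 0.05 in Cre+ LSEC and 6.70 ± 0.15 in control LSEC (SD, n = 3 each), a log2 fold change of 0.28 (limma adjusted p = 0.0942). Its other probe set above the filter level gave -0.13, with both LSEC group means under that level. The control LSEC mean of the brightest Nek2 probe set was under it too. Ccne2 had the largest positive value of the 39, 0.67, with 7.82, 7.19 and 7.83 in Cre+ LSEC against 6.93, 6.39 and 7.51 in control LSEC (adjusted p = 0.151). Its arrays overlapped, through control replicate 3.

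The negative end held 4 genes of mitosis and Ccne1. Kif20a, a kinesin of cytokinesis, had log2 levels of 4.84, 4.92 and 5.44 in Cre+ LSEC against 5.61, 5.10 and 6.34 in control LSEC (-0.62, adjusted p = 0.201). All 6 values were under the filter level. Ccnb2, which encodes cyclin B2, had 7.19, 6.16 and 6.42 in Cre+ LSEC against 6.67, 6.71 and 7.62 in control LSEC (-0.41, adjusted p = 0.47). Cenpa had 6.84, 6.43 and 6.28 in Cre+ LSEC against 7.02, 6.44 and 7.27 in control LSEC (-0.39, adjusted p = 0.351), and Mki67 had 7.98, 7.56 and 7.61 against 7.83, 7.78 and 8.55 (-0.34, adjusted p = 0.343). In each of these 4 genes the groups overlapped and control replicate 3 was the highest array. Ccne1 had 9.38, 9.25 and 8.97 in Cre+ LSEC against 9.34, 9.55 and 9.82 in control LSEC, again with overlap and with control replicate 3 highest (-0.37, adjusted p = 0.297). Its other probe set gave the opposite sign, 0.39, with both LSEC group means under the filter level. At the positive end, Tpx2, which activates Aurora A on the spindle, had 7.27, 7.11 and 7.02 in Cre+ LSEC against 6.60, 6.54 and 7.25 in control LSEC (0.33, adjusted p = 0.351).

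The call in LSEC turned on single control arrays. Without control replicate 2 Kif20a passed (-0.91, limma adjusted p = 0.046), and without control replicate 3 Ccne2 passed (0.95, adjusted p = 0.0307). Markers of LSEC themselves differed between these groups: 6 of 8 fell in Cre+ LSEC, with a summed log2 level of 11.95 to 12.86 against 13.81 to 14.43 in control LSEC, and none of them was at 0. Of 11 pan-endothelial markers 3 fell, Pecam1, Cldn5 and Robo4, with a summed log2 level of 14.03 to 14.28 in Cre+ LSEC against 14.34 to 14.64 in control LSEC. Of the 8 stellate, fibroblast and mural markers 2 fell, Col1a2 and Pdgfra, with 11.63 to 11.86 against 11.74 to 12.06. The part of these markers in the division values was not tested.

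In lung endothelium 33 of the 39 log2 fold changes were above 0 and 6 below, with a median of 0.08, against 0.02 over all genes tested. The median was 0.19 without control lung replicate 1 and -0.01 without control lung replicate 2. No gene passed, where 0.107% of all genes tested did, none had an unadjusted p under 0.05, where 4.56% did, and every adjusted p was 1. Both Cre+ arrays lay above both control arrays for 7 of the 39 genes and below for 1, where 21.8% and 16.6% of all genes did. Tk1, the thymidine kinase of the salvage pathway, had the largest value, with log2 levels of 9.26 and 9.29 in Cre+ lung against 8.95 and 8.93 in control lung (0.34, 95% interval -0.03 to 0.71). Mad2l1, a spindle checkpoint gene, had 9.34 and 9.51 in Cre+ lung against 9.31 and 9.01 in control lung (0.27). Cenpe, a centromere kinesin, had 8.03 and 8.19 in Cre+ lung against 8.02 and 7.74 in control lung (0.23). Ttk, the kinase that starts the checkpoint, was the 1 gene lower in both Cre+ arrays, with 7.37 and 7.29 against 7.62 and 7.38 (-0.17). Its other probe set, under the filter level in lung, gave 0.25. E2f1 had 9.04 and 9.01 in Cre+ lung against 9.02 and 9.17 in control lung (-0.06), and Tyms had 6.32 and 6.48 against 6.47 and 6.39 (-0.03). Both overlapped. For Mad2l1 and Cenpe the gaps between the genotypes were as small as 0.03 and 0.01 on the log2 scale, and 1 control array made most of the difference.

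The difference of the genotype effects between tissues was then tested itself. In LSEC minus thymus 37 of 39 genes had a positive value, with a median of 0.46, against -0.01 over all genes tested. Of the 39, 3 passed, Rrm1, Foxm1 and Melk, all higher, where 2.34% of all genes tested passed and 0.898% were higher. For Rrm1 the log2 fold change was 0.33 in LSEC and -0.55 in thymus, a difference of 0.87 (95% interval 0.55 to 1.20, limma adjusted p = 0.0154). For Foxm1 it was 0.04 in LSEC and -0.43 in thymus, a difference of 0.47 (0.23 to 0.71, adjusted p = 0.0482). For Melk it was 0.27 in LSEC and -1.57 in thymus, a difference of 1.84 (0.91 to 2.77, adjusted p = 0.0476). Melk levels in LSEC and in Cre+ thymus were under the filter level, so the size for Melk is uncertain. The count did not hold when the processing changed. It was 1, Rrm1, after median centring, on the values as deposited and without a filter, 0 without control thymus replicate 1 or 2 or without Cre+ thymus replicate 2, and 5 without control LSEC replicate 3.

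No gene passed in LSEC minus lung, where 0.614% of all genes tested passed, and 1 of 39, Kif2c, had an unadjusted p under 0.05, where 9.57% of all genes did. No gene passed in lung minus thymus, where 0.0307% of all genes tested passed, although 38 of 39 values were positive with a median of 0.62 and 20 had an unadjusted p under 0.05, where 7.9% of all genes did. The smallest adjusted p from limma was 0.366 in LSEC minus lung and 0.25 in lung minus thymus. A p that misses the threshold does not show that the effects were alike: the 95% interval for Melk, lung minus thymus, ran from 0.59 to 2.63. The 3 differences between tissues share arrays with each other and with the effects within each tissue.

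Within a group the 39 genes moved together from array to array. The mean log2 level of the 39 was 7.72, 7.55 and 7.49 in Cre+ LSEC against 7.56, 7.35 and 7.84 in control LSEC. It was 8.95 and 9.10 in Cre+ lung against 9.02 and 8.85 in control lung, and 9.27 and 9.10 in Cre+ thymus against 9.69 and 9.67 in control thymus. Over all genes tested the array means lay between 8.27 and 8.46. The groups overlapped in LSEC and lung, and in thymus the gap between the genotypes was larger than that between replicates.

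Single arrays held the top value for most members. Cre+ thymus replicate 1 was the higher array of its group for 34 of 39 genes, where it was so for 52.2% of all genes tested, and control lung replicate 1 for 36 of 39, where it was so for 49.6%. Control LSEC replicate 3 was the highest of its 3 arrays for 30 of 39, where 30.4% of all genes had their highest value. The median SD of the 39 was 0.29 in control LSEC against 0.13 over all genes tested, and 0.04 in control thymus against 0.08. The widest were Kif20a in control LSEC (SD 0.62) and Melk in Cre+ thymus. Since the members share this array-to-array movement, they are not independent of each other in any count above.

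**Figure D4:**
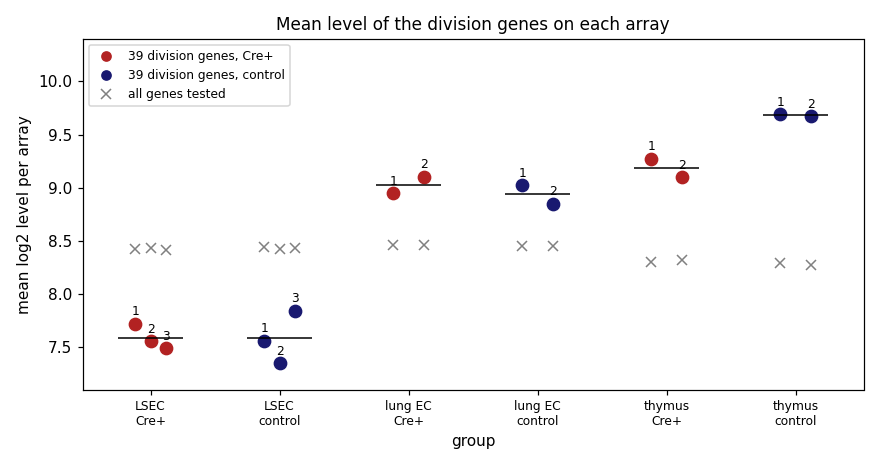
Mean log2 level of the 39 division genes on each array (filled points, numbered by replicate, with a line at the group mean) and of all 13035 genes tested (crosses). Both Cre+ thymus points lie under both control thymus points, while the genotypes overlap in LSEC and lung and the crosses stay between 8.27 and 8.46.

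Other genes of the cycle were read beside the 39, from lists that hold none of them. In LSEC 8 of 16 replication licensing genes rose and none fell, where 6.06% of all genes tested passed in either direction, with a median log2 fold change of 0.30. Mcm2, a helicase subunit gene, averaged 9.63 ± 0.06 in Cre+ LSEC and 8.92 ± 0.07 in control LSEC (SD, n = 3 each), a log2 fold change of 0.71 (limma adjusted p = 0.000969). Cdc6, which loads the helicase, rose by 0.91 (adjusted p = 0.0238), and Mcm5 and Mcm4 rose by 0.79 and 0.61 (adjusted p = 0.013 and 0.000766). Of 38 further cell division genes 5 rose and 1 fell in LSEC, with a median of 0.15. The risers were Uhrf1 (0.75), which maintains DNA methylation after replication, the DNA ligase gene Lig1 (0.61), the polymerase alpha gene Pola1 (0.56), the clamp loader gene Rfc4 (0.55) and the condensin gene Smc2 (0.48). Zwint, a kinetochore gene, fell by 0.43. Of 27 cell cycle regulators 2 rose, Ccnd1 (0.91), the gene of cyclin D1, and E2f7 (0.59), a repressor of the E2F family, and 2 fell, Gadd45a (-2.33), a growth arrest gene, and Cdkn1b (-0.58), the gene of the inhibitor p27.

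In thymus 0 of 16 licensing genes and 0 of 27 regulators passed, where 0.414% of all genes tested did. Of 38 further division genes 1 passed, the condensin gene Smc4. Its log2 level averaged 11.22 ± 0.16 in Cre+ thymus and 11.87 ± 0.10 in control thymus (SD, n = 2 each), a fall of 0.65 (limma adjusted p = 0.02). All 16 licensing genes had log2 fold changes below 0, with a median of -0.37, and 36 of the 38 did, with a median of -0.50. Of all 13035 genes tested 5823 were below 0 in thymus. At an unadjusted p under 0.05 there were 11 of 16, 26 of 38 and 14 of 27, where 12.4% of all genes were. In lung no gene of the 3 lists passed, where 0.107% of all genes tested did. There 0 of 16, 1 of 38 and 1 of 27 had an unadjusted p under 0.05, where 4.56% of all genes did.

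The difference of effects, LSEC minus thymus, passed for 7 of 16 licensing genes and 8 of 38 further division genes, all higher, where 0.898% of all genes were higher, beside the 3 of 39 above. Cdc6 gave 1.77, Mcm3 1.05, Pola1 1.12 and Rfc4 1.10 (limma adjusted p = 0.0187, 0.0052, 0.0149 and 0.0172). Of the 27 regulators 3 were higher, Chek1, E2f7 and Rbl1, and Gadd45a was lower. In LSEC minus lung Gadd45a alone passed among the 3 lists (-1.69, adjusted p = 0.0105).

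**Figure D5:**
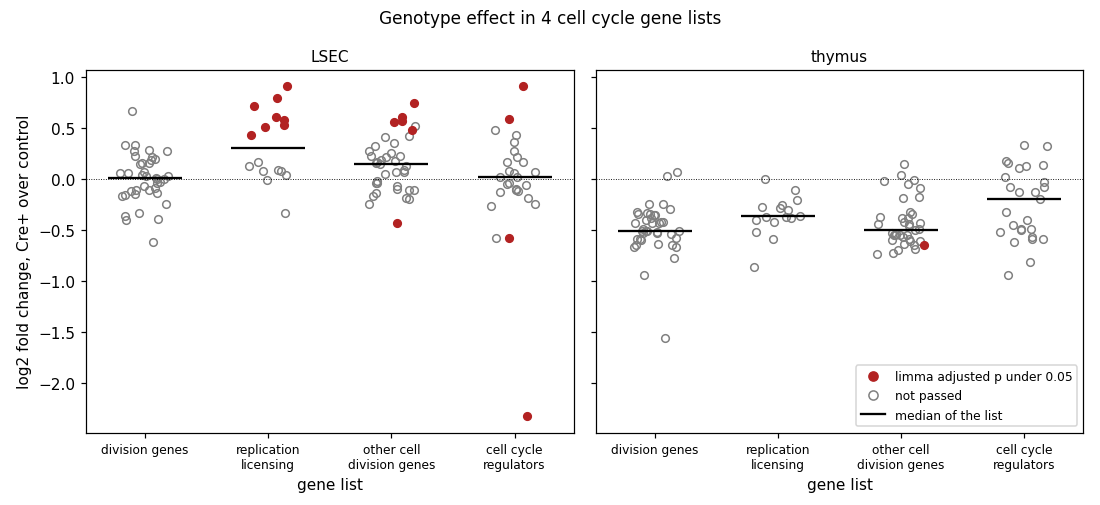
Log2 fold change, Cre+ over control, in LSEC (left) and thymus (right) for the 39 division genes, 16 replication licensing genes, 38 other cell division genes and 27 cell cycle regulators; filled points passed at a limma adjusted p under 0.05 and black lines are medians. The medians in LSEC are 0.01, 0.30, 0.15 and 0.02, and those in thymus are -0.51, -0.37, -0.50 and -0.20.

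The promoters of the members were searched for letters known from cell cycle genes. RefSeq promoter windows on GRCm38.p6, from 250 bases before to 50 after the start of the gene, were at hand for 34 of the 40 members, Ccnb1 among them. The cell cycle homology region, read as TTTGAA or TTCGAA on either strand, is bound by the DREAM and MuvB complexes that time late cell cycle genes. It was found in 19 of 34 windows (55.9%), where 21.7% of 27025 genes held it. The CCAAT box, read as CCAAT on either strand and bound by NF-Y, was in 25 of 34 (73.5%), where 41.1% of genes held it, and both motifs were in 18 of 34 (52.9%), where 8.61% held both.

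The motifs were spread unevenly over the roles. The homology region was in 0 of 7 windows of genes of S phase entry or of DNA precursors and replication. It was in 19 of 27 windows (70.4%) of the other members. The 26 matches of the region had their median at 16.5 bases before the start, and the 57 CCAAT matches lay at a median of 65 bases before it. Prc1 has 2 overlapping windows, and its matches were counted once, from the first. An E2F site, read as TTTCCCGC, TTTCGCGC, TTTGCCGC or TTTGGCGC on either strand, was in 1 window, that of Cdk1 (2.94%, against 2.6% of genes). A forkhead site, read as GTAAACA on either strand, was in 0 of 34, where 4.05% of genes held it. A match describes letters and not binding, and no match says only that these letters are not in the window.

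The 4 windows shown are those of the members with the smallest p in a genotype comparison or a difference between tissues, among members with a window. They are Rrm1 (LSEC minus thymus), Melk, Kif11, a spindle kinesin gene, and Racgap1, a cytokinesis gene (each in thymus). Each runs 5′ to 3′ in the direction of the gene on GRCm38.p6, with the cell cycle homology region and CCAAT letters of either strand in capitals. Rrm1 lies at chr7:102441445-102441744 (+), Melk at chr4:44300667-44300966 (+), Kif11 at chr19:37376132-37376431 (+) and Racgap1 at chr15:99651607-99651906 (-).
Rrm1: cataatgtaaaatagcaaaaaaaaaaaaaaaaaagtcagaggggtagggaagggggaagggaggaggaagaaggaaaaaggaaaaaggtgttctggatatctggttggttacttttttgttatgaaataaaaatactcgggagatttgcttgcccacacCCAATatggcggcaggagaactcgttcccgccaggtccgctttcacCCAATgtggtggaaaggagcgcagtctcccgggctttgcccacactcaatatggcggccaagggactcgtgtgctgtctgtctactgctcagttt
Melk: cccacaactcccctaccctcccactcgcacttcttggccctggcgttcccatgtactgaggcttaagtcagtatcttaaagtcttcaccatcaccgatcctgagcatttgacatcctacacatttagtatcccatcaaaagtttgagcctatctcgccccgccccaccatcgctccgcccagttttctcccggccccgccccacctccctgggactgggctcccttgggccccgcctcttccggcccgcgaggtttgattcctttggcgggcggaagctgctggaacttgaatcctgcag
Kif11: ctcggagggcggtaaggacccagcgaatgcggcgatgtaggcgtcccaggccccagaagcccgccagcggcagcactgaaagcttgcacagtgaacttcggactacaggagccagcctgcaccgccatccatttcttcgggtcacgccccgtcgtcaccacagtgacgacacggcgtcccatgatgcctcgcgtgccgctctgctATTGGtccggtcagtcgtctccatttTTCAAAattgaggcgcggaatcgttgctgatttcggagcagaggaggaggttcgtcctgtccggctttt
Racgap1: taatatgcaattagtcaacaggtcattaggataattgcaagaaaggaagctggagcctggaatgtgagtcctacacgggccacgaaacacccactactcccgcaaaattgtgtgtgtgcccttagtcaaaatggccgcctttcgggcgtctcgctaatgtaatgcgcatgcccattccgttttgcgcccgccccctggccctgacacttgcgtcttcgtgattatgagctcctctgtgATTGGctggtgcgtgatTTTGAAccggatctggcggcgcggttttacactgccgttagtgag
Rrm1 holds 2 CCAAT boxes and no homology region as read here, and Melk holds none of the motifs as read here. Kif11 holds a CCAAT box 45 bases before the start and the homology region 19 bases before it, counted to the first base of each motif, and Racgap1 holds 1 of each. Kif11 and Racgap1 had log2 fold changes of -0.59 and -0.53 in thymus, Cre+ over control (limma adjusted p = 0.0822 and 0.114), beside -0.55 for Rrm1 and -1.57 for Melk. The windows of Rrm1 and Melk hold neither TTTGAA nor TTCGAA on either strand, and other forms of the region were not searched.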

How the data were processed

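Expression was read from a deposited table of 45101 probe sets on 14 Affymetrix mouse arrays, 1 array per sample. The authors deposited 1 value per probe set and array, taken here as log2 from its range of 0 to 13.8; neither the labels nor the table say how probes were summarized, scaled or normalized. By the labels' protocols, Trizol and an RNeasy kit gave the RNA, which was labelled by in vitro transcription from oligo-dT primed cDNA.

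Array medians spread over 0.282, so the arrays were quantile normalized. In the platform annotation 34945 probe sets had 1 gene symbol, 932 had several and 9160 none, and 64 were array controls. Each gene was read from its brightest probe set with 1 symbol. It was tested if its mean in any tissue was at least 6.87 (40th percentile of all probe sets). The model of 6 group means was fitted to 13035 genes by limma version 3.58.1 under R 4.3.3, using lmFit and eBayes with neither trend nor robust; 8 degrees of freedom were residual and 3.21 came from the prior. Adjusted p-values are limma's, with Benjamini-Hochberg over all genes tested in a comparison and a threshold of 0.05, and intervals are 95%. The fit was tested on simulated data. The 2 or 3 arrays per group limit the precision.

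Same-numbered Cre+ and control samples did not deviate together (r = -0.31, -0.09 and -0.26 in LSEC, -0.24 in lung and 0.05 in thymus), so the numbers were not taken as pairs. The members, lists, motifs and rules were chosen with earlier results of these data known. Values by array, in at least 1 comparison, are given for each member passing a genotype comparison or a difference between tissues, for Mki67, Top2a, Cdk1, Pcna, Tk1, Ccne1, Ccne2, E2f1 and Foxm1, and for members with the 3 highest or 3 lowest log2 fold changes of a comparison (Nek2 as group means); Ccnb1 was on the same list. Outside the members, the rule names the floxed genes and up to 4 passing genes per pathway list and comparison. Promoters are printed for the 4 members with the smallest p in such a comparison. Bub1b, Kif2c, Cdca3, Bub1 and Rrm2, and list genes beyond 4, were named after their values were seen.

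The pathway lists held 16 replication licensing, 42 other cell division and 28 cell cycle regulator genes, and 12 further lists held cell type markers. Of the marker lists whose genotype comparisons are not described in the report, those of erythroid precursors, B cells, macrophages and lung epithelium had no passing gene. In Cre+ LSEC 2 mast cell markers were higher and 1 lower, 1 neutrophil and 1 hepatocyte marker were higher, and 1 lung endothelial marker was higher and 1 lower. In Cre+ lung 1 lung endothelial marker was lower. Promoter windows came from RefSeq and were searched with Python 3.11.15. The alternatives were other scaling, filters, probe set summaries and variance settings, array weights, fits to fewer arrays, a replicate block, and each array left out. A block with crossed lung numbers, and the removal of probe sets that can bind related transcripts, were chosen after seeing the data.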

Additional observations from a re-analysis of the deposited data

Results flagged for a closer look

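The genotype effects of 3 division genes differed between LSEC and thymus by a test of the difference itself. The log2 difference, LSEC minus thymus, was 0.875 for Rrm1, from 0.33 in LSEC and -0.55 in thymus, with all 3 Cre+ LSEC arrays above all control LSEC arrays and both Cre+ thymus arrays below both control thymus arrays. It was 0.47 for Foxm1, whose LSEC arrays overlapped while its Cre+ thymus arrays lay below both control thymus arrays. It was 1.84 for Melk, with overlapping LSEC arrays and both Cre+ thymus arrays below both control thymus arrays. The limma adjusted p was 0.0154, 0.0482 and 0.0476. Rrm1 passed in 16 of the 21 other settings run for it, Foxm1 in 2 of 21 and Melk in 4 of 20.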

How the results depend on the processing

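The counts of members passing in the 2 comparisons of control tissues kept within 1.5 times of 34 and 36 in every setting run. In LSEC minus thymus the count was 1 (Rrm1) in place of 3 after median centring, on the values as deposited, without a filter, with array weights and with only the arrays compared. With the replicate block it was 0, and the block gave no member in any genotype comparison; the control tissues could not be compared under it, since the block lies within tissue. With the lung numbers crossed in the replicate block, chosen after seeing the data, the count was 1 in LSEC and 1 in LSEC minus thymus. In thymus 2 members passed with the filter at the 60th percentile (Rrm1 and Foxm1), where 36 members were tested, and 2 with trend and robust on (Rrm1 and Melk). In LSEC 2 passed with the mean of all probe sets (Rrm1 and Bub1) and 1 with trend and robust on (Rrm1). With an array left out in turn the counts ranged from 0 to 1 in LSEC, 0 to 4 in thymus, 0 to 5 in LSEC minus thymus, 33 to 34 for LSEC against lung and 34 to 38 for thymus against endothelia, and were 0 in lung, LSEC minus lung and lung minus thymus. In LSEC minus thymus the count was 0 without control thymus replicate 1, control thymus replicate 2 or Cre+ thymus replicate 2, 5 without control LSEC replicate 3, and 1 without each of the other LSEC arrays; in thymus it was 4 without Cre+ thymus replicate 1. The cause of these changes was not tested. The median of the members ran from -0.09 to 0.09 in LSEC, -0.01 to 0.19 in lung and -0.61 to -0.38 in thymus. Median centring gave a median of all genes of -0.17 in thymus against endothelia, in place of -0.08. Probe sets under 6.87 give only uncertain sizes.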
